A study of Mus musculus with 4 samples.

Results

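Adipogenic regulators and adipocyte genes were examined in an ATAC-seq peak table of mouse MSCs, with 5 regulators (Pparg, Cebpa, Cebpb, Cebpd and Zfp423) set against 5 effectors of the mature adipocyte (Fabp4, Adipoq, Lpl, Plin1 and Cd36). A peak was counted for a gene when it overlapped the gene span in GENCODE M21 or the 10000 bp on either side, which gave 76 of the 128055 peaks, 56 at regulators and 20 at effectors. ATAC-seq reads open chromatin by inserting adapters into it with the Tn5 transposase. MSCs of C57BL/6N mice aged 3 to 5 months, which the labels call bone-marrow MSCs and which by the study's methods grew out of crushed hind limb bone, were profiled in 4 libraries, 2 of cells grown under hypoxia (2% O2) and 2 of cells grown under normoxia (21% O2), in the same control α-MEM medium. According to the study's methods, cells of both groups were first expanded under hypoxia, were selected as CD45-/TER-119-/Sca-1+/CD140a+, and were only then split between the oxygen levels. They were then cultured for a week at these levels, and all mice were wild-type males. The labels place the cell sort on day 12 of culture. No adipogenic medium is named for these libraries, and how many mice each library pools is not stated in the sources used here.

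Fat cells arise from mesenchymal progenitors through a cascade of transcription factors. Cebpb and Cebpd act first and switch on Cebpa and Pparg, which then maintain each other and activate the genes of lipid uptake and storage, while Zfp423 marks cells already committed to the fat lineage. Pparg is read from an upstream and a downstream promoter, and the downstream promoter gives the adipocyte form PPARγ2. In bone marrow the same progenitors can become either osteoblasts or adipocytes, and the comparison asks how the oxygen level moves the chromatin of the adipocyte side of that choice.

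The deposited value of a peak is its read number per 10000000 library reads. It is not divided by peak width, so levels of different genes are compared below only per kb of peak. Library totals ran from 26680936 to 29965523 reads, and 1 read was worth between 0.334 and 0.375. Nuclear peaks held 49.2% and 53.2% of the reads under hypoxia against 31.0% and 35.2% under normoxia, and 59.5% of all peaks had both normoxia values below both hypoxia values as deposited. Changes were therefore fitted with limma on log2(value + 1) after scaling each library by a relative log expression (RLE) factor, which put the median log2 fold change of all peaks, normoxia over hypoxia, at -0.0040 in place of -0.44. A peak was called at a false discovery rate (FDR) under 0.01 over all 128055 peaks. In a bulk library, fewer cells with an open site and less opening per cell cannot be told apart.

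The promoter sequences of the members were taken from RefSeq on build GRCm38.p6, the build of the files, as 250 bases before to 50 bases after a start site. The table held 10 promoters of 7 members, and Cebpd, Fabp4 and Lpl had no entry. The 2 Pparg promoters are shown because their peaks had log2 fold changes of opposite sign, the Cebpa promoter because its peak was called, and those of Adipoq and Plin1 because effector promoter peaks mostly had log2 fold changes above 0. The Adipoq and Plin1 windows shown lie outside the peaks measured near them, so their sequences are not those of the peaks. Capitals mark the C/EBP motif TTGCNNAA on either strand and, on the forward strand, the TATA box TATAAA.
Pparg upstream start, chr6:115360894-115361193, plus strand: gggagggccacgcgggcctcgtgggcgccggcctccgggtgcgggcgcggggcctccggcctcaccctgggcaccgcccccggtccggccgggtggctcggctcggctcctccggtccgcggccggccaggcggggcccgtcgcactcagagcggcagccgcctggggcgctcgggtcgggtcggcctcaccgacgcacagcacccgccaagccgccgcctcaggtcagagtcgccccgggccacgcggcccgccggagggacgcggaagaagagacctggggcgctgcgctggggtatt
Pparg downstream start (PPARγ2), chr6:115421816-115422115, plus strand: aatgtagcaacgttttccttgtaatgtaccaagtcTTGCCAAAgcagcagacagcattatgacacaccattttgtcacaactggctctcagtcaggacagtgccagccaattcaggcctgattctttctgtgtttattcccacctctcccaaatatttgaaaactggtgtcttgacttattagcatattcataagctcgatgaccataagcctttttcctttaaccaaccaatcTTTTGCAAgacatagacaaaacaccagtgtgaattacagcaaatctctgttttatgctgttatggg
Cebpa, chr7:35119043-35119342, plus strand: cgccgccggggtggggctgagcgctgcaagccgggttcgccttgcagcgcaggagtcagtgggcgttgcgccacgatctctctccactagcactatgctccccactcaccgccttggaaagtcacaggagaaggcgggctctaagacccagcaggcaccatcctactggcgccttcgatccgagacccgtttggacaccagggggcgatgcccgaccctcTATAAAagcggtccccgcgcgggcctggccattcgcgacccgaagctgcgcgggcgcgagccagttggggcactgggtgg
Adipoq, chr16:23146286-23146585, plus strand: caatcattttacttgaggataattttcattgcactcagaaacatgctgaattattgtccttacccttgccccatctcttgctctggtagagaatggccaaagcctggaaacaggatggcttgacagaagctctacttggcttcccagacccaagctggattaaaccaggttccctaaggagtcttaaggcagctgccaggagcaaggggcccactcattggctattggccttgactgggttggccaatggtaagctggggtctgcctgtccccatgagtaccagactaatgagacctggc
Plin1, chr7:79732727-79733026, minus strand: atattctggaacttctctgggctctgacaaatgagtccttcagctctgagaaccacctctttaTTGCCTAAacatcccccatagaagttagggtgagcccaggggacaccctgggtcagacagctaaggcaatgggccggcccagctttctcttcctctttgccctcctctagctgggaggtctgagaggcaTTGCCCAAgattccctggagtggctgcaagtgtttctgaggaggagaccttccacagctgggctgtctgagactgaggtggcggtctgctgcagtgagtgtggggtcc

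The promoters differed in composition as well as in role. The upstream Pparg start shown had a GC content of 80.3% and 44 CG dinucleotides, Cebpa 67.3% and 29, and Cebpb 80.7% and 50. The further Pparg start in the upstream peak had 62.7% and 13. The PPARγ2 start had 40.3% and 2, Adipoq 50.0% and 0, Plin1 55.7% and 2, and Cd36 43.0% and 3. The median over all 32851 promoters of the table was 52.7% and 7, so that the GC-rich promoters belonged to regulators and the effector promoters shown were all poor in CG dinucleotides. No measured peak covered the Adipoq, Plin1 and Cd36 starts of these sequences. The C/EBP motif had 2 matches in the PPARγ2 promoter, at -215 and -16 from the start, 2 in Plin1, at -187 and -58, and 2 in the first Zfp423 promoter, at -131 and 23, while 10.8% of all promoters held it. The Cebpa promoter held TATAAA at -30, and the Cebpb promoter at 22, a motif found in 8.32% of all promoters. Neither the hypoxia response motif ACGTG, the AP-1 motif TGANTCA nor 2 copies of AGGNCA separated by 1 base were found in any of the 10 promoters. They occurred in 19.6%, 7.81% and 0.381% of all promoters, counted on both strands.

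Taking all 76 peaks, 4 were lower in normoxia at an FDR under 0.01 in limma (5.26%) and 0 were higher, against a background of 4.57% lower and 1.77% higher among all peaks. At an unadjusted limma p under 0.05 the counts were 13 lower and 9 higher, with a background of 16.8% and 12.5%, and edgeR on the recovered reads also called 4 lower and 0 higher. The share of these genes' peaks that changed was thus close to that of the genome. The median log2 fold change was -0.01 over the members, -0.02 over regulator peaks and 0.01 over effector peaks. These 4 calls lay at regulators, 1 each at Pparg and Cebpa and 2 at Zfp423, and the difference from effectors was not tested. After RLE scaling 21 member peaks had both normoxia values below both hypoxia values and 20 had both above, with a background of 29.6% and 27.4%. As deposited, with no scaling, limma called 20 lower (background 24.0%), 5 of them at effectors, and 0 higher, 44 peaks were lower without overlap (background 59.5%) and 5 were higher without overlap (background 6.94%).

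**Figure D1:**
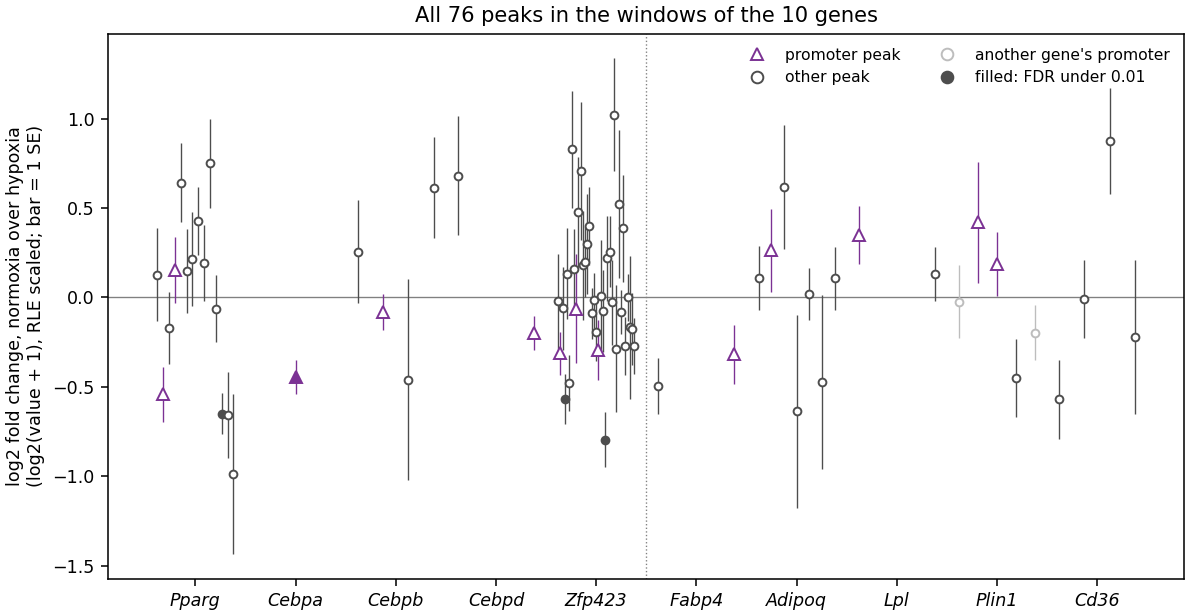
Log2 fold change (normoxia over hypoxia, log2(value + 1), RLE scaled) of each of the 76 peaks with 1 SE from limma, by gene, regulators left of the dotted line and effectors right, peaks of a gene in the order of transcription. Triangles are promoter peaks, grey circles promoters of other genes, and the 4 filled symbols, all below 0 and all at regulators, are the peaks called at an FDR under 0.01.

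At the 13 promoter peaks, those within 1000 bp of a protein-coding start of a member, most regulators lay below and most effectors above 0 after RLE scaling, while as deposited both medians were below 0. Of the 8 regulator promoter peaks 7 had a negative log2 fold change, with a median of -0.25, and of the 5 effector promoter peaks 4 had a positive one, with a median of 0.26. Over all promoter peaks the median was -0.27 and 78.3% were negative, values near those of the regulator promoters. As deposited the medians were -0.72 and -0.19. Both normoxia values were then below both hypoxia values at 8 of the 13 member promoter peaks, and at 15198 of all 17661 promoter peaks. The median of log2(value + 1) over regulator promoters minus that over effector promoters was 1.79 and 1.49 under hypoxia against 1.07 and 1.02 under normoxia, where only the change of this gap is read, since the peaks differ in width. The difference of the gap, normoxia minus hypoxia, was -0.60, with a pooled SD of 0.15 between replicates, and the ranges did not overlap. No test was made of this gap. The same gap between all promoter and all other peaks of the genome was also smaller in normoxia, with a difference of -0.46. Only 1 of the 13 was called lower, against a background of 16.7% of 17661 promoter peaks. Of the 61 other member peaks 3 were called lower, against a background of 2.64%.

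**Figure D2:**
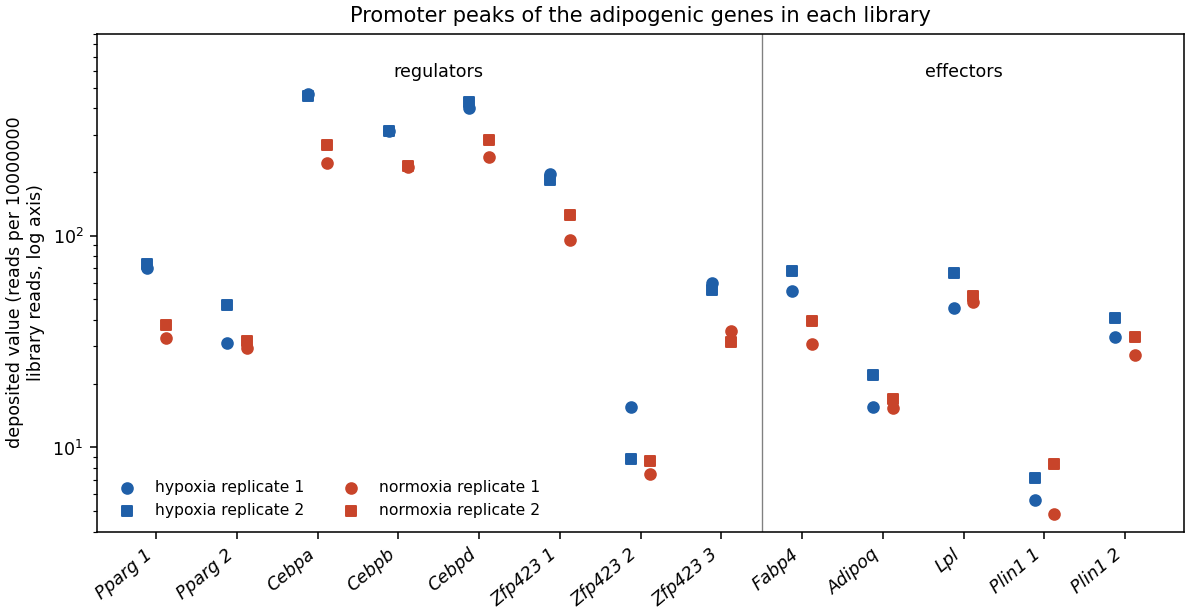
Deposited value (reads per 10000000 library reads, log axis) of the 13 promoter peaks in each of the 4 libraries, regulators left of the line and effectors right, with peaks of one gene numbered in the order of transcription. Hypoxia and normoxia points are far apart at the first Pparg peak and at Cebpa and overlap at the second Pparg peak, Adipoq, Lpl and both Plin1 peaks.

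Pparg, the nuclear receptor that directs fat cell formation, had 14 peaks, and its starts gave different values. The peak over the upstream starts, chr6:115360601-115362800, had values of 70.4 and 73.8 under hypoxia against 33.0 and 37.7 under normoxia. The groups did not overlap, and the log2 fold change was -0.54 (limma, SE 0.15, FDR 0.0166), which missed the threshold. The peak over the PPARγ2 start, chr6:115420601-115422300, had values of 31.1 and 46.9 under hypoxia against 29.6 and 31.7 under normoxia. Here the first hypoxia library lay between the normoxia libraries, and the log2 fold change was 0.15 (limma, SE 0.19, FDR 0.625).

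The ratio of these peaks within a library does not depend on a factor that scales the whole library. The log2 ratio of the upstream to the PPARγ2 peak was 1.18 and 0.65 under hypoxia against 0.16 and 0.25 under normoxia. The groups did not overlap, with a difference of -0.71 and a pooled SD of 0.27. The two-sided exact permutation p was 0.3333, the smallest that 2 libraries against 2 can give. The peaks differ in width, so only the change of this ratio is read, and the ratio was larger in both hypoxia libraries. The PPARγ2 peak was also the poorer in GC, 36.7% against 58.0%. With a GC correction the log2 fold changes were -0.40 at the upstream and -0.030 at the PPARγ2 peak, a difference of -0.37 in place of -0.70 in limma, and the difference was -0.61 after quantile normalization and after cyclic loess. Without hypoxia replicate 1 it was -0.44.

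The strongest Pparg peak per kb was no promoter but a region downstream of the gene, chr6:115492101-115494600, between annotated genes. Its values were 207 and 233.6 under hypoxia against 95.9 and 104.8 under normoxia, and both normoxia values were below both hypoxia values. The log2 fold change was -0.65 (limma, SE 0.11, FDR 0.0003). At 64.1 per kb over the 4 libraries it was at the 98.5 percentile of all peaks per kb. Its log2 ratio to the PPARγ2 peak was 2.73 and 2.32 under hypoxia against 1.70 and 1.72 under normoxia, again with no overlap (difference -0.81, exact permutation p 0.3333). Its call was lost with equal totals over peaks (-0.36), quantile normalization (-0.32) and cyclic loess (-0.33).

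The other 11 Pparg peaks had mean values from 3.20 to 31.2 and log2 fold changes from -0.99 to 0.75. None of them was called. Over all 12 peaks outside the promoters 5 were negative and 7 positive. Of these 12 peaks 1 was assigned to hypoxia alone in the peak calling, so its sign partly follows from that assignment. The peaks that followed the downstream region within the window, at chr6:115498901-115500200 and chr6:115500201-115501100, were also negative, at -0.66 and -0.99. The peaks between the PPARγ2 start and the gene end were mostly above 0, with chr6:115424301-115425000 at 0.64 and chr6:115476401-115478000 at 0.75. With no scaling the latter had values of 11.3 and 13.6 under hypoxia against 16.1 and 15.02 under normoxia, so it was higher in both normoxia libraries even as deposited.

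The centre of the downstream Pparg region held 1 match to the C/EBP motif, which 15.8% of the same central 300 bases of all peaks also held, and had a GC content of 48.3%. It is shown with the centre of the Zfp423 intron peak that had the largest fall among the members called.
Pparg downstream region, chr6:115493201-115493500, plus strand: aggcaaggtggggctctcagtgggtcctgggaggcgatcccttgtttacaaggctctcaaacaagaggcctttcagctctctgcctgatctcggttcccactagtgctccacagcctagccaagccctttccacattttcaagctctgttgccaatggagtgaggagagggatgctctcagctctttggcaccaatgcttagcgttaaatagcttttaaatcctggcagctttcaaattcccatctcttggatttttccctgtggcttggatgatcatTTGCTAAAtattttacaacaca
Zfp423 intron peak, chr8:87790951-87791250, plus strand: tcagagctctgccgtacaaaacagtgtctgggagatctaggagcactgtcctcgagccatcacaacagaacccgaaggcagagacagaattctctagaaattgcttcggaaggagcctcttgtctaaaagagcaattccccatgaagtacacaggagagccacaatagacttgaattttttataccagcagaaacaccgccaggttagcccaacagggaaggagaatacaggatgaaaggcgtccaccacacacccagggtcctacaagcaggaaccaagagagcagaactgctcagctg

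**Figure D3:**
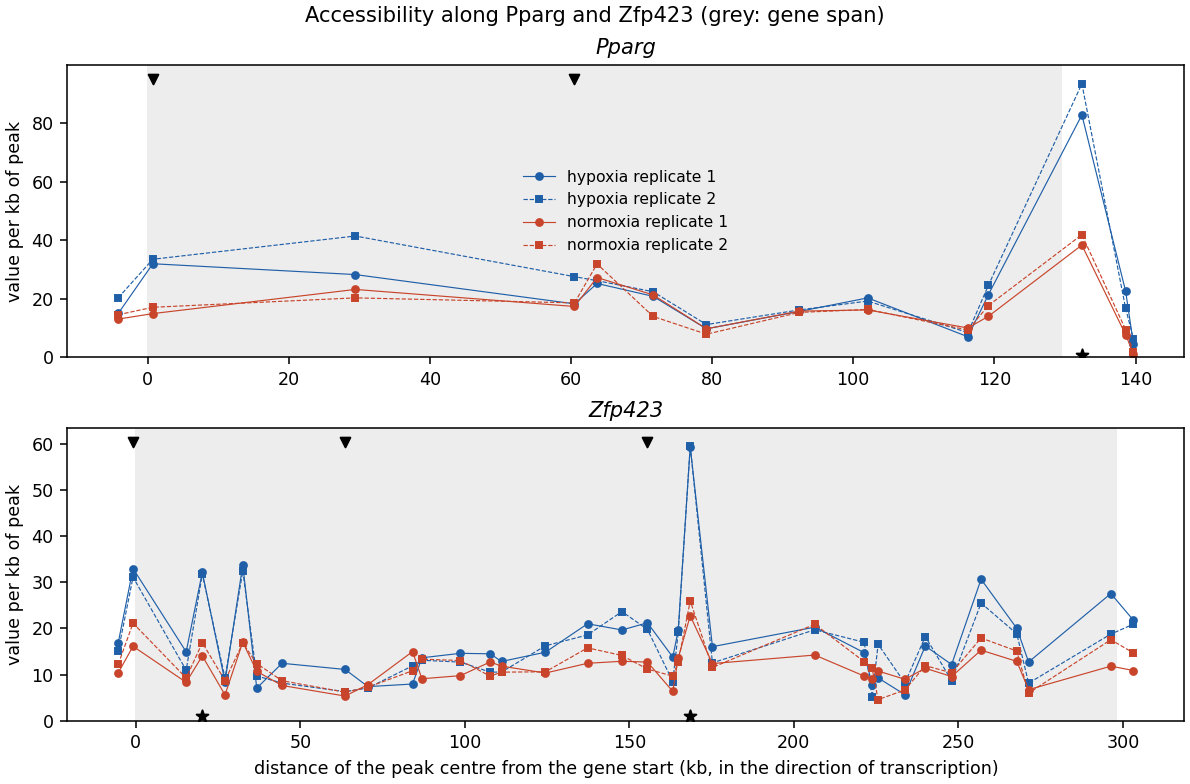
Deposited value per kb of peak along Pparg (top) and Zfp423 (bottom) in each library, against the distance of the peak centre from the gene start in kb in the direction of transcription, with the gene span in grey. Arrowheads mark promoter peaks and stars the peaks called at an FDR under 0.01, and at the called peaks both hypoxia lines stand clear of both normoxia lines.

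Cebpa, the factor that sustains Pparg in the mature fat cell, lay within a single broad peak of 12000 bp, chr7:35117501-35129500, that covered the whole gene and the antisense gene Gm45091. Its values were 467 and 456 under hypoxia against 220 and 268 under normoxia. The groups did not overlap, and the log2 fold change was -0.45 (limma, SE 0.10, FDR 0.0022), and it was the 1 promoter peak of the 13 that was called. Among the strongest 10% of all peaks, to which it belongs, the median was -0.33 and 28.4% were called lower. Its call was lost with equal totals over peaks (-0.16), a GC correction (-0.33), quantile normalization (-0.08) and cyclic loess (0.0045).

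Cebpb and Cebpd, the early factors of the cascade, also lay in very broad peaks, but neither was called. The Cebpb peak, chr2:167683001-167698600, spanned 15600 bp and reached into Tmem189, with values of 311 and 313 under hypoxia against 211 and 213 under normoxia. After scaling these were 274 and 255 against 260 and 240, which overlapped, and the log2 fold change was -0.08 (limma, SE 0.10, FDR 0.638). The Cebpd peak, chr16:15885301-15896700, spanned 11400 bp and reached into Spidr, with values of 399.5 and 427 under hypoxia against 236 and 284 under normoxia. Its log2 fold change was -0.20 (limma, SE 0.10, FDR 0.166), with no overlap after scaling. Per kb the Cebpd and Cebpa peaks were at similar levels, 36.3 and 38.4 under hypoxia against 22.8 and 20.3 under normoxia, and Cebpb was lower, at 20.03 and 13.6. All 3 were among the widest peaks of the table, at width percentiles of 99.7 for Cebpa, 99.9 for Cebpb and 99.6 for Cebpd.

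Outside these broad peaks the Cebpb window held 3 weak peaks and the Cebpd window 1. The strongest at Cebpb, chr2:167679701-167680600, had values of 22.6 and 10.9 under hypoxia against 16.5 and 11.3 under normoxia (limma log2 fold change 0.26, SE 0.29, FDR 0.596), and the groups overlapped. The Cebpd peak chr16:15877001-15877600 had 7.79 and 5.10 under hypoxia against 6.75 and 9.01 under normoxia (limma log2 fold change 0.68, SE 0.33, FDR 0.165), which overlapped as deposited.

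Zfp423, the zinc finger factor of preadipocyte commitment, held 35 of the 76 peaks along a span of 297786 bp. Leaving it out, 2 of 41 member peaks were called lower and the median log2 fold change was 0.02. Its promoter peak at the first start, chr8:87957501-87963400, had values of 194.6 and 184 under hypoxia against 95.2 and 124.8 under normoxia. The groups did not overlap, and the log2 fold change was -0.31 (limma, SE 0.12, FDR 0.0789). The promoter peaks further into the gene, chr8:87802701-87805500 and chr8:87895301-87896700, had log2 fold changes of -0.29 and -0.06 and were not called.

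The Zfp423 calls lay in introns. The peak chr8:87790401-87791800 had values of 83.2 and 83.3 under hypoxia against 31.9 and 36.4 under normoxia, with a log2 fold change of -0.80 (limma, SE 0.15, FDR 0.00067). It was the steepest of the calls, and per kb its level was 59.4 in hypoxia and 24.4 in normoxia. The peak chr8:87937801-87941000 had values of 103.0 and 101.7 under hypoxia against 44.98 and 54.1 under normoxia, with a log2 fold change of -0.57 (limma, SE 0.14, FDR 0.0063). In both peaks the replicates of a group lay close together and the groups were far apart. The first lost its call with equal totals (-0.51), and the second with equal totals (-0.28), a GC correction (-0.44), quantile normalization (-0.38), cyclic loess (-0.37), a pseudocount of 0.1 (-0.57, FDR 0.0104) and without normoxia replicate 1 (-0.49).

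The strongest Zfp423 peak in total was chr8:87715601-87723700. It spanned 8100 bp of intron and had values of 131.3 and 147.9 under hypoxia against 92.2 and 96.8 under normoxia, which did not overlap, but its log2 fold change after scaling was -0.08 (limma, SE 0.12, FDR 0.707). The other 29 peaks outside promoters had mean values from 3.69 to 88.6 and log2 fold changes from -0.48 to 1.02, and none of them was called by limma. The highest of these, chr8:87735301-87736300, had values of 7.79 and 5.10 under hypoxia against 8.995 and 11.3 under normoxia, so both normoxia values were higher as deposited.

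Among the effectors, Fabp4, the fatty acid carrier of the fat cell cytoplasm, had both of its peaks below 0 on the log2 fold change scale. Its promoter peak, chr3:10206301-10209400, had values of 54.5 and 68.3 under hypoxia against 30.7 and 39.7 under normoxia, with a log2 fold change of -0.32 (limma, SE 0.16, FDR 0.192). The peak upstream of it, chr3:10213001-10217000, had 75.4 and 74.8 under hypoxia against 33.7 and 42.7 under normoxia, with a log2 fold change of -0.50 (limma, SE 0.15, FDR 0.0275). At both, the groups did not overlap before or after scaling, and neither was called after RLE scaling, while both were called with values as deposited.

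Adipoq, the gene of the fat cell hormone adiponectin, had no peak over its start. The nearest peak, chr16:23143901-23145600, ended 936 bp upstream, with values of 15.6 and 22.1 under hypoxia against 15.4 and 17.0 under normoxia. The groups overlapped, and the log2 fold change was 0.26 (limma, SE 0.23, FDR 0.481). The strongest peak of the window lay past the gene end at chr16:23159101-23160600, with 69.0 and 80.6 under hypoxia against 51.0 and 57.7 under normoxia. After scaling it was 60.8 and 65.6 against 62.9 and 65.2, which overlapped, for a log2 fold change of 0.02 (limma, SE 0.14, FDR 0.948). The other 5 peaks ranged from -0.64 to 0.62, and none was called.

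Lpl, the lipase that releases fatty acids from circulating fat, had a promoter peak with a positive log2 fold change at an unadjusted limma p of 0.0373. Its promoter peak, chr8:68880101-68883200, had values of 45.3 and 66.3 under hypoxia against 48.7 and 52.1 under normoxia, and the second hypoxia library was the highest of all 4. After scaling the values were 39.9 and 54.0 against 60.2 and 58.8, which did not overlap (limma log2 fold change 0.35, SE 0.16, FDR 0.141). The peak behind the gene, chr8:68908001-68909300, had 60.2 and 64.9 under hypoxia against 45.4 and 53.4 under normoxia (limma log2 fold change 0.13, SE 0.15, FDR 0.604). Per kb this distal peak was the stronger, at 48.1 in hypoxia and 37.98 in normoxia against 18.0 and 16.3 at the promoter.

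Plin1, the coat protein of the lipid droplet, had promoter peaks at or near starts within the gene, and none over the start shown above. The peak chr7:79727001-79730200 had values of 33.3 and 40.8 under hypoxia against 27.4 and 33.4 under normoxia (limma log2 fold change 0.19, SE 0.18, FDR 0.528). The small peak chr7:79731201-79732000 had 5.66 and 7.14 under hypoxia against 4.87 and 8.34 under normoxia (limma log2 fold change 0.42, SE 0.34, FDR 0.438). Both overlapped between the groups as deposited and were higher in normoxia after scaling. An exonic peak near the gene end, chr7:79721101-79722100, had a negative log2 fold change, with 26.2 and 27.9 under hypoxia against 13.9 and 14.02 under normoxia (limma log2 fold change -0.45, SE 0.22, FDR 0.164). The window also took in 2 promoter peaks of neighbouring genes, at -0.20 and -0.02.

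Cd36, a fatty acid transporter that macrophages and endothelial cells also use, had 4 peaks and none within 1000 bp of a start. The strongest, chr5:17879701-17880600 in an intron, had values of 26.2 and 37.7 under hypoxia against 12.4 and 18.0 under normoxia. The groups did not overlap, and the log2 fold change was -0.57 (limma, SE 0.22, FDR 0.0771). The other 3 peaks ranged from -0.22 to 0.87, and none was called.

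The log2 fold changes of the members ran with peak strength, as in the whole table. Of the 22 member peaks in the strongest 20% of all peaks by mean value, 19 were negative and 4 were called lower, with a median of -0.27. Among all peaks of that class 80.8% were negative and 18.1% were called lower, with a median of -0.26. Of the 54 weaker member peaks 21 were negative and 0 were called by limma, with a median of 0.15, and among all weaker peaks 42.8% were negative, 1.18% were called lower and the median was 0.08. Regulator promoter peaks had a median of 22.5 per kb and effector promoter peaks 10.5 per kb over the 4 libraries, so the groups also differed in strength. The Lpl promoter, at 0.35, lay in a class of like strength with a median of -0.16, and the Pparg downstream region, at -0.65, in one with a median of -0.33. The part of peak strength in the contrast of regulators with effectors was not tested.

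The size and side of these contrasts depended on the scaling. The median of regulator promoter peaks was -0.25 after RLE scaling, -0.72 as deposited, 0.04 with equal totals over peaks, -0.04 after quantile normalization and 0.0039 after cyclic loess. That of effector promoter peaks was 0.26, -0.19, 0.54, 0.21 and 0.22. The median of all peaks was -0.44 as deposited and 0.26 with equal totals. Under each of these the regulator promoters lay below the effector promoters, by between 0.22 and 0.53 on the log2 scale. RLE scaling, no scaling and equal totals differ only by a factor per library. Such a factor moves both medians nearly alike, so it could hardly change this order. Quantile normalization and cyclic loess could change it, and there the regulators and effectors lay closer together.

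**Figure D4:**
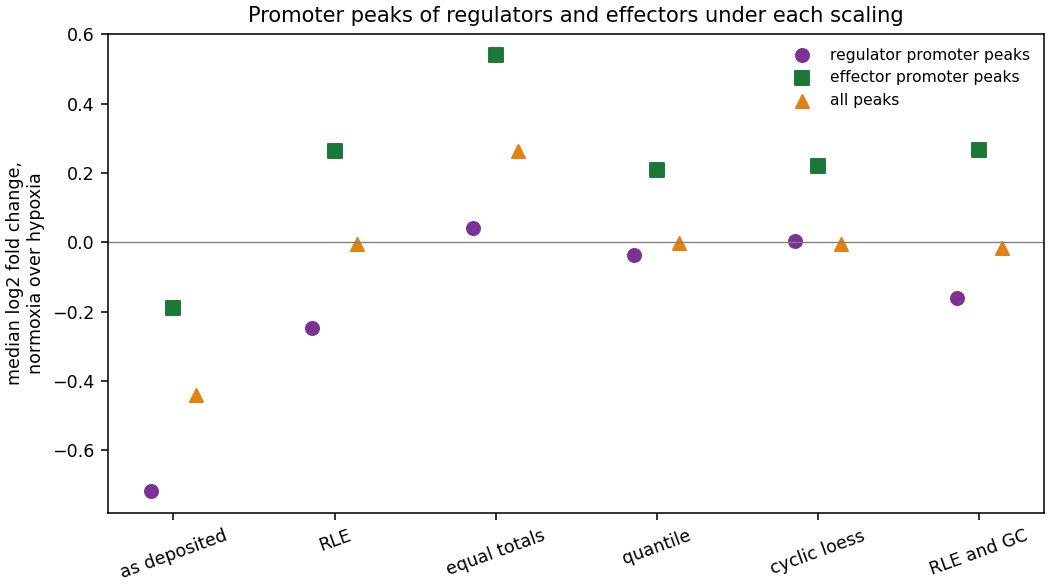
Median log2 fold change (normoxia over hypoxia) of the 8 regulator promoter peaks, the 5 effector promoter peaks and all peaks under 6 ways of scaling the libraries. The regulator median is below the effector median in each, and the position of 0 moves between them. The scalings as deposited, RLE and equal totals differ only by a factor per library, which could hardly change that order.

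A wider list of 43 genes of fat cell formation and function was read at promoters only. Of its genes 40 had a promoter peak, with none at Cidec, Cfd and Lep, genes of lipid droplet fusion, an adipocyte protease and leptin. Of the 57 peaks 8 were called lower (14.04%) and 0 higher in limma, where 16.7% of all promoter peaks were called lower. At an unadjusted p under 0.05 limma had 31 lower (54.4%) and 1 higher, against 44.1% and 3.88% of all promoter peaks. The median log2 fold change was -0.31, and -0.27 over all promoter peaks.

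Pro-adipogenic regulators had 3 of 18 peaks called lower, against a background of 16.7% of all promoter peaks for this and the following lists. These were at Klf5, which acts with Cebpb and Cebpd upstream of Pparg (169.9 and 168.6 in hypoxia, 78.0 and 91.1 in normoxia, log2 fold change -0.52), at Ebf2, an early B cell factor of preadipocytes (-0.52), and at Nr3c1, the glucocorticoid receptor (-0.63). Anti-adipogenic regulators had 2 of 14 called lower, and all 14 had a negative log2 fold change after RLE scaling, as did 78.3% of all promoter peaks. Klf2, which represses Pparg, had the steepest fall of those called, with 911 and 922 under hypoxia against 314 and 385 under normoxia (-0.92, limma FDR 1.49e-08), followed among the called by Gata3 (-0.52). Genes of lipid synthesis and storage had 1 of 15 called, at the lipid droplet gene Plin2 (-0.65), those of lipolysis 0 of 4, and those of secretion and uptake 2 of 6, at the insulin receptor gene Insr (-0.50) and the lipase inhibitor gene Angptl4 (-0.54). Activators and repressors of fat cell formation were both among the called, at shares of 16.7% and 14.3%, which are near that background.

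Marker genes were read in the same way. All 8 mesenchymal genes had a promoter peak, Pdgfra and Ly6a of the sort among them, with 2 of 12 peaks called lower, at Ly6a and Col1a1, the same share as among all promoter peaks (16.7%). The Ly6a call lay at a weak peak of 1100 bp, with means of 12.7 under hypoxia and 2.52 under normoxia (-1.60). The strongest Ly6a promoter peak, with means of 73.5 and 46.3, was not called (-0.18, limma FDR 0.459), nor was the remaining Ly6a peak (-0.88, limma FDR 0.0313). Of the 5 blood genes reported here 2 had a promoter peak (Spi1 and Csf1r), while Ptprc, Itgam and Cd3e had none, and of 4 endothelial genes 3 had a promoter peak, with none at Cdh5. As deposited, the summed value of the blood list was 109.3 and 113.6 under hypoxia against 80.96 and 84.4 under normoxia. That of the endothelial list was 92.7 and 96.6 against 58.5 and 75.4. After RLE scaling 2 of 2 blood peaks had a positive log2 fold change, with a median of 0.10. Of the 4 endothelial peaks 3 were positive and 1 negative, with a median of 0.13. No peak of either list was called. Of the 12 mesenchymal peaks 10 were negative, with a median of -0.27. All promoter peaks had the same median, and 78.3% of them were negative. The median of the mean values was 64.4 over mesenchymal, 48.5 over blood and 16.5 over endothelial peaks, so the lists also differed in strength. The part of strength in these signs was not tested. For the genes that other cell types also use, Cd36, Fabp4 and Lpl, the part of such cells was not tested.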

How the data were processed

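Open chromatin was measured by ATAC-seq in 2 hypoxia and 2 normoxia libraries of mouse MSCs, grouped by their labels. By the study's methods the authors had aligned the reads to mm10 with bowtie2, removed duplicates with Picard (per the labels, Bowtie2 and Picard, versions not given), and called 1 peak set over both groups with chromstaR (bins of 300 bp, steps of 100 bp, mapping quality of at least 15). Each peak carries an assignment, and 3 of the 76 member peaks (3.95%) were assigned to hypoxia alone, against 6.84% of all peaks. The sign of such a peak partly follows from that assignment. The deposited signal, called RPKM by the authors, was a whole read number scaled to 10000000 reads of the library total and not to peak width. With a tolerance of 0.01 read, 100% of values in each library were whole, and the median peak held 33 to 48 reads. The same reads may be counted in neighbouring bins, so no counting interval was given. RLE size factors (1.13, 1.23, 0.81 and 0.89) were computed from the deposited values. limma 3.58.1 in R 4.3.3 (lmFit, eBayes with trend and robust, two-sided) was fitted on log2(value / factor + 1) over all 128055 peaks, with Benjamini-Hochberg adjustment. This scale understates the change of low peaks. The fit functions were also run on counts simulated with a single dispersion and no library-wide difference in signal. The data here have such a difference, so that run does not vouch for the calls. edgeR 4.0.16 (glmQLFit, glmQLFTest) on the recovered reads was an alternative (7296 peaks lower and 3257 higher over the whole table, against 5856 and 2262 in limma), as were other scalings, pseudocounts, filters, a GC correction, a replicate block and leaving out each library. Promoter peaks had an edge within 1000 bp of a protein-coding start in GENCODE M21. Of each member, every promoter peak, every called peak and the strongest other peak were named. A few further peaks, at Pparg and Zfp423, were named after their values were seen. Members, lists and markers were chosen with earlier results of these data known, so no test was made over them, and part of the blood marker list is not reported here. Motifs were searched with Python 3.11.15. The labels do not say whether libraries of a group came from separate mice. The study describes its ATAC-seq libraries as biologically independent. The limma p-values use the spread between these 2 libraries per group, moderated by eBayes with the spread over all peaks, and not the spread at the peak alone. Deviations of same-numbered libraries had a correlation of 0.011. With 2 pairs this cannot decide whether same-numbered libraries share a cell preparation, which the labels do not say. The study's enhancer set and RNA data were not used here.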

Additional observations from a re-analysis of the deposited data

How the results depend on the processing

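Counts of calls depended most on the scaling. Member peaks called lower (4) became 20 as deposited, 0 with equal totals over peaks, 1 with quantile normalization, 1 with cyclic loess, 2 with a GC correction, 0 without trend and robust estimation and 7 at an FDR under 0.05. Member peaks called higher (0) became 5 with equal totals, 1 with the replicate block and GC correction, and 4 at an FDR under 0.05. Wider list peaks called lower (8) became 43 as deposited, 1 with equal totals, with quantile normalization and with cyclic loess, 0 without trend and robust estimation and 19 at an FDR under 0.05, and 1 was called higher with equal totals. Leaving out 1 library gave 0 to 5 member peaks lower and 0 to 15 wider list peaks, with 15 without normoxia replicate 2. Without either hypoxia library limma called 0 of all peaks, so these counts say nothing about stability. Without trend and robust estimation it also called 0 of all peaks. The member median (-0.01) was -0.47 as deposited and 0.27 with equal totals. The promoter difference of regulators and effectors (-0.51), added after seeing the data, was -0.24 with quantile normalization, -0.22 with cyclic loess and -0.85 to -0.29 leaving out 1 library (-0.29 without hypoxia replicate 1, -0.34 without normoxia replicate 2 and -0.85 without hypoxia replicate 2). With the replicate block 5 member peaks were lower, the fifth at the upstream Pparg start. With the block and GC correction 6 were, of which 2 lay at effectors, the upstream Fabp4 peak (-0.53, FDR 0.0043) and the Cd36 intron peak (-0.74, FDR 0.0059). The intron peak of Zfp423 at -0.80 stayed called under quantile normalization and cyclic loess, and the other 3 calls did not. Signs turned as deposited at the PPARγ2 start (-0.31), the Cebpb side peak (-0.19), both Adipoq peaks (-0.19, -0.45), both Lpl peaks (-0.12, -0.34) and Plin1 (-0.28). With equal totals, quantile normalization and cyclic loess they turned at Cebpb (0.21, 0.29, 0.33), Cebpd (0.094, 0.17, 0.25) and the wide Zfp423 intron peak (0.21, 0.21, 0.20), with cyclic loess at Cebpa (0.0045), with quantile normalization and cyclic loess at the first Zfp423 promoter (0.0099, 0.0033) and with equal totals at the Zfp423 promoter of -0.06 (0.20). With the GC correction, with or without the replicate block, they turned at the PPARγ2 start (-0.030), Cebpb (0.029), that Zfp423 promoter (0.056) and the distal Adipoq peak (-0.026). Leaving out 1 library gave -0.085 to 0.38 at the PPARγ2 start, -0.49 to 0.35 at that Zfp423 promoter, -0.043 to 0.067 at the distal Adipoq peak and -0.29 to 0.79 at the Cebpb side peak. The cause was not tested. Weak peaks rest on few reads, 13 in the first normoxia library at the smaller Plin1 promoter peak.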
